A study of Mus musculus with 12 samples.

Results

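Ketone bodies are small water-soluble fuels that the liver makes from fatty acids, and the brain of a suckling rodent draws on them because maternal milk is rich in fat. They enter neural cells through proton-linked monocarboxylate transporters of the Slc16 family. Inside the mitochondrion β-hydroxybutyrate is oxidised to acetoacetate, which is coupled to coenzyme A by succinyl-CoA:3-ketoacid CoA transferase and then split by a thiolase into acetyl-CoA for the citrate cycle. The 7 genes described here encode these steps. Oxct1 is the CoA transferase and commits acetoacetate to oxidation. Bdh1 is the mitochondrial β-hydroxybutyrate dehydrogenase, and Bdh2 is a cytosolic dehydrogenase related to it. Acat1 and Acat2 are the mitochondrial and the cytosolic acetoacetyl-CoA thiolase. Slc16a1 (MCT1) and Slc16a7 (MCT2) are transporters, the latter of high affinity and known as the neuronal form. They were chosen by name from this pathway, and all 7 were found among the 24452 gene symbols of the files. The study itself had singled out ketone body metabolism in these libraries, so a direction seen in these genes is no independent evidence for that pathway.

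The data were stranded RNA-Seq libraries of primary somatosensory cortex from male C57BL/6 mice at postnatal day 7, taken 8 h after intraperitoneal injection of ethanol or saline. WT mice and p53 KO mice, which carry the Trp53tm1Tyj disruption in every cell, were born to heterozygous parents, and no litter is given for a library. The 4 groups, WT saline, WT ethanol, KO saline and KO ethanol, held 3 libraries each, named here by the library number of the label. Estimated counts were summed over the transcripts of a symbol. Levels are given as TMM-scaled CPM (TMM CPM, counts scaled to library size), a scaling that centres the bulk of genes between libraries, or as the deposited RPKM, which alone corrects for transcript length and whose sorted values are almost equal between libraries, as after a quantile normalization. The total count ran from 719735 in KO ethanol library 12 to 17066392 in KO saline library 8. KO ethanol library 12 and WT saline library 3 are the only libraries whose names begin with L, and the dissection method, which was changed during the study, is not assigned to libraries in the sources used here. WT saline library 1 stood apart, with a summed level of 5 neuronal markers of 732 RPKM where every other library had at least 1406, and with a TMM factor of 0.564 against 0.832 to 1.23. In this bulk tissue, fewer cells of a type and less RNA per cell cannot be told apart. Trp53 had 20 to 261 counts in WT and 14 to 453 counts in KO libraries, and since counts are given per whole gene they do not test the disruption.

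The promoters of the most abundant member, Oxct1, and of Bdh1, whose 2 transcripts begin at different starts, are shown because the results below turn on these genes. Each window runs from 250 bases before to 50 bases after a start (RefSeq, GRCm38.p6), and capitals mark a GC box, the letters GGGCGG on either strand. A promoter was listed for 5 of the 7 genes.
Oxct1, chr15:4026178-4026477, plus strand: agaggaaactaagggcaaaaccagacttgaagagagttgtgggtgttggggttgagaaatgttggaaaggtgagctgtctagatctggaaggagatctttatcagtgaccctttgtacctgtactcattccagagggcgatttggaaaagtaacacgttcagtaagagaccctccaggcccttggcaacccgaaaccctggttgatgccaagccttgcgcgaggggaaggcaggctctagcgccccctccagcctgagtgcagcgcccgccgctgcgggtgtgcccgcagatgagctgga
Bdh1, upstream start, chr16:31422047-31422346, plus strand: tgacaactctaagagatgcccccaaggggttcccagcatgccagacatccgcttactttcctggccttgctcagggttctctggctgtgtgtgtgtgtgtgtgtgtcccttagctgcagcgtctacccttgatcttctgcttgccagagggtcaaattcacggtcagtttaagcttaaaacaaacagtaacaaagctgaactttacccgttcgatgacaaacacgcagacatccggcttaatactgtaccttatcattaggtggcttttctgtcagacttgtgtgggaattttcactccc
Bdh1, downstream start, chr16:31428503-31428802, plus strand: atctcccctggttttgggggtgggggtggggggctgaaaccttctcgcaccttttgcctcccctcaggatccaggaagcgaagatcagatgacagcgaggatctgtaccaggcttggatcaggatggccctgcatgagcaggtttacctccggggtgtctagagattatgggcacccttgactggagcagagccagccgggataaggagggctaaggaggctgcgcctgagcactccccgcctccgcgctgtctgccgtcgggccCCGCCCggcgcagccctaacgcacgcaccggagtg
The Oxct1 window held 11 CpG dinucleotides at 55.3% GC, against medians of 7.0 and 52.7% over 32817 promoters. The Bdh1 starts differed from each other: the upstream window held 7 CpG at 48.3% GC and no GC box, and the downstream window 17 CpG at 63.7% GC and 1 GC box. GC boxes were present in 35.6% of all promoters. Slc16a1 had the richest window of the set, with 42 CpG at 73.7% GC and 1 GC box, and Acat2 also had 1 GC box. The letters TATAAA, present in 13.6% of all promoters, and a p53 half-site, present in 8.36%, had no match in the 6 windows of these genes, and CCAAT, present in 37.4%, matched only in Bdh2.

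The enzymes differed widely in abundance. Oxct1 was the most abundant member, at 221 ± 87.8 RPKM (SD, n = 12 libraries), above 97.8% of the 14739 symbols tested. Acat1 (82.2 ± 18.8 RPKM) and Bdh1 (61.1 ± 11.3 RPKM) came next, and their ranges over libraries overlapped. Acat2 had 33.1 ± 7.89 RPKM and Slc16a1 15.6 ± 5.14 RPKM. Slc16a7 lay at 4.24 ± 2.47 RPKM, and its highest library, at 8.67 RPKM, was below the lowest of Slc16a1, at 9.14 RPKM. Bdh2 was the lowest, at 1.31 ± 1.37 RPKM, with 0 counts in both libraries whose names begin with L. The neighbours Oxct1 and Acat1 overlapped as well (lowest Oxct1 library 108 RPKM, highest Acat1 library 123 RPKM). All 7 passed the filter on low counts.

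**Figure D1:**
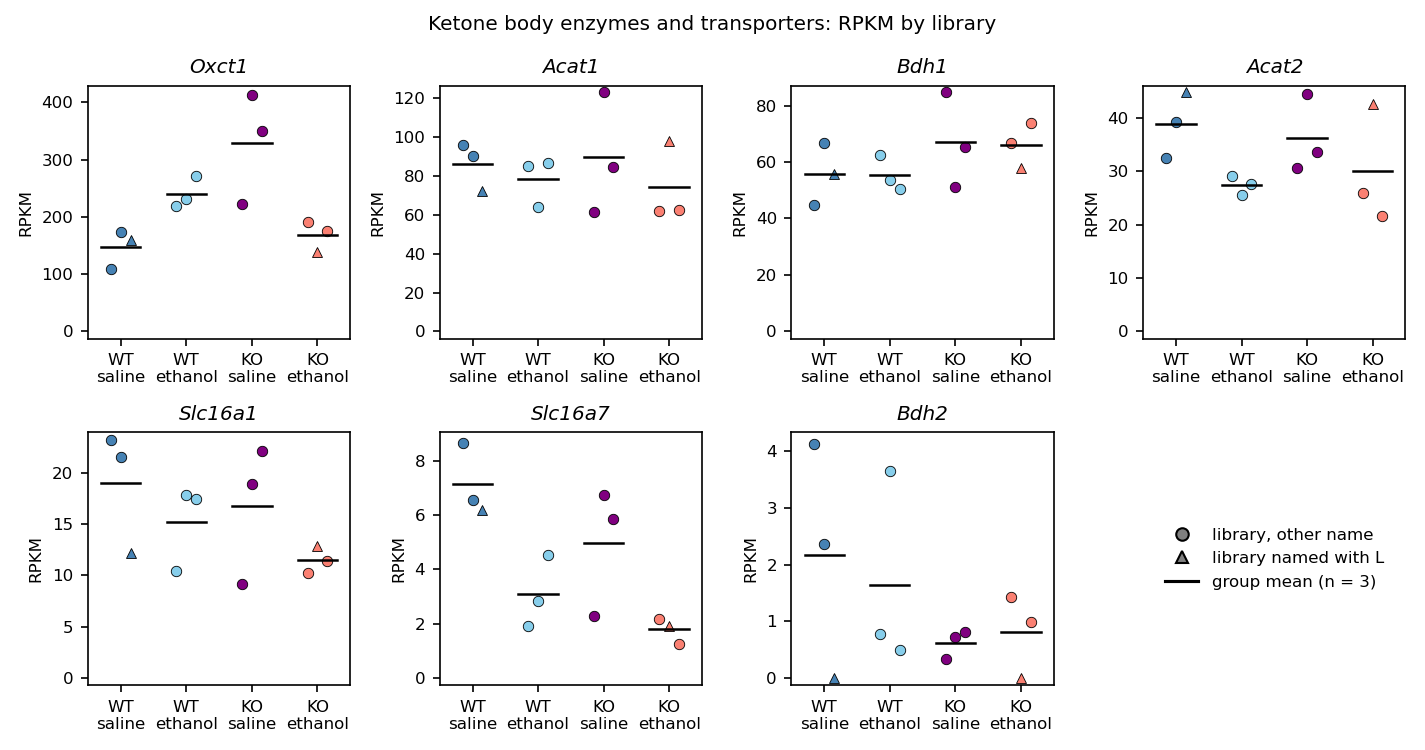
RPKM (vertical axes, linear) of the 7 genes in each of the 12 libraries by group, with triangles for the libraries whose names begin with L and bars for the group means (n = 3). Slc16a7 is lower in the ethanol group of each genotype without overlap, while Oxct1 is higher after ethanol in WT and lower in KO. The share of all symbols without overlap on this scale is not given.

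Slc16a7, the high-affinity transporter (chr10:125227485-125328536, mm10), was the member with the clearest difference after ethanol, and it was lower in both genotypes. In WT saline libraries 1, 3 and 13 it had 22.8, 17.0 and 16.4 TMM CPM. In WT ethanol libraries 4, 5 and 14 it had 8.89, 12.4 and 5.45 TMM CPM, so that every ethanol library lay below every saline library. In KO saline libraries 7, 8 and 9 the values were 6.71, 19.2 and 16.7 TMM CPM, and in KO ethanol libraries 10, 12 and 18 they were 6.63, 3.34 and 4.06. The KO groups did not overlap either, but KO saline library 7 and KO ethanol library 10 nearly met. The value of KO ethanol library 12 rests on 2 counts, with an exact Poisson interval (95%, counting error only) of 0.405 to 12.1 TMM CPM, whereas the other libraries held 31 to 327 counts. In RPKM the group means were 7.13 ± 1.34 in WT saline and 3.09 ± 1.32 in WT ethanol, against 4.96 ± 2.37 in KO saline and 1.80 ± 0.475 in KO ethanol (SD, n = 3 each).

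By edgeR's quasi-likelihood test, Slc16a7 was lower after ethanol, with a log2 fold change of -1.06 ± 0.47 (SE) in WT mice (adjusted p = 0.253) and -1.50 ± 0.50 in KO mice (adjusted p = 0.999), both under 0.05 before adjustment. The difference between these effects was -0.44 ± 0.68 (adjusted p = 0.793). Their mean, a comparison added after the values had been seen, was -1.28 ± 0.34 (adjusted p = 0.523). In TMM CPM and in RPKM, 3 of 3 ethanol libraries of each genotype lay below every saline library. In CPM of the library total the KO groups overlapped, with 8.15 in KO ethanol library 10 and 7.83 in KO saline library 7. The share of all symbols without overlap is not given here. In the exact permutation test of the same mean effect, with treatment exchanged within each genotype, p was 0.005, the smallest that its 400 arrangements can give, for log2 TMM CPM and for log2(RPKM + 1). The separation of the groups on those scales already fixes that minimum, so this p is no further support. With each library left out in turn it lay between 0.005 and 0.02. Limma on log2(RPKM + 1) gave -1.03 ± 0.37 in WT mice (adjusted p = 0.336) and -1.01 ± 0.37 in KO mice (adjusted p = 0.921), again under 0.05 before adjustment. None of the adjusted p-values of Slc16a7 with all libraries, in edgeR, DESeq2 or limma, was under 0.05. Without the libraries whose names begin with L the mean effect was -1.32 ± 0.36 (edgeR, adjusted p = 0.0458), in a fit where 8.22% of all symbols passed adjustment, and its adjusted values over 23 alternatives ran from 0.0458 to 0.999. In the WT comparison the edgeR test no longer passed 0.05 before adjustment without WT saline library 1 (-0.92, adjusted p = 0.503), WT saline library 13 (-1.15, adjusted p = 0.319), WT ethanol library 4 (-1.08, adjusted p = 0.519) or WT ethanol library 14 (-0.87, adjusted p = 0.437), nor without TMM scaling (-0.59, adjusted p = 0.498). In the KO comparison it passed before adjustment whichever library was left out.

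Slc16a1, the broadly expressed transporter, differed less. It had 149, 63.2 and 123 TMM CPM in WT saline and 83.6, 89.7 and 52.3 in WT ethanol. KO saline had 46.4, 96.0 and 102, and KO ethanol 51.0, 65.2 and 56.3. The groups overlapped in each comparison. The log2 fold changes after ethanol were -0.58 ± 0.40 in WT mice (edgeR, adjusted p = 0.436) and -0.51 ± 0.40 in KO mice (adjusted p = 0.999). The ratio of Slc16a1 to Slc16a7 counts within a library, which no scaling of libraries can move, had a geometric mean of 5.68 in WT saline and 8.68 in WT ethanol, where the groups overlapped. It was 5.96 in KO saline and 12.8 in KO ethanol, without overlap (exact permutation p = 0.1, the smallest that 3 libraries against 3 allow, Benjamini-Hochberg adjusted p = 0.3 over 6 ratios). The ratio of 19.5 in KO ethanol library 12 rests on 2 Slc16a7 counts, whose exact Poisson interval (95%) is 0.242 to 7.22 counts.

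**Figure D2:**
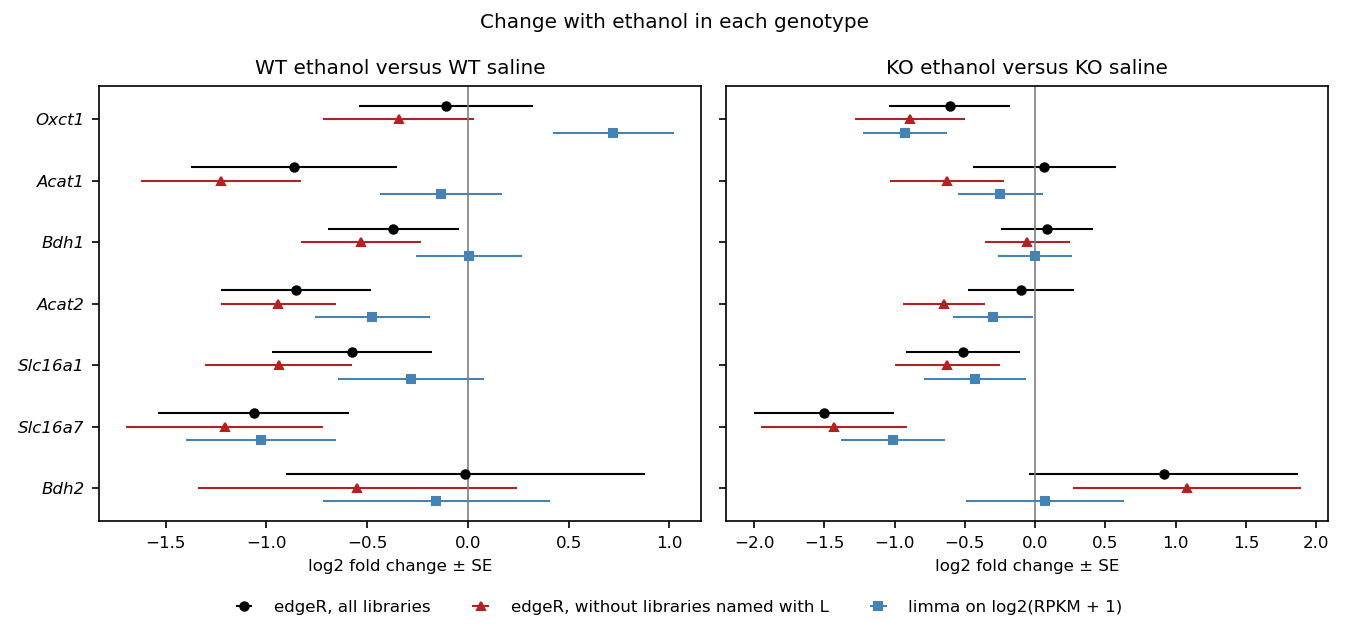
Log2 fold change after ethanol (horizontal axis, ± SE) of the 7 genes in WT mice (left) and KO mice (right), from edgeR with all 12 libraries, from edgeR without the libraries whose names begin with L, and from limma on RPKM. Slc16a7 lies below 0 in all 6 estimates, at -1.01 to -1.50, while Oxct1 in WT mice lies on either side of 0.

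Oxct1, the CoA transferase (chr15:4026428-4155345, mm10), changed its order between groups with the scale on which it was read. In RPKM it had 108, 160 and 174 in WT saline and 231, 272 and 218 in WT ethanol. It had 223, 413 and 351 RPKM in KO saline and 191, 138 and 176 RPKM in KO ethanol. On this scale the groups did not overlap within either genotype, ethanol being the higher in WT mice and the lower in KO mice. Such a separation of 3 libraries against 3 has an exact permutation p of 0.1. The share of all symbols that separate in RPKM is not given here. In TMM CPM the values were 932, 642 and 946 in WT saline and 574, 1060 and 704 in WT ethanol, against 657, 1295 and 912 in KO saline and 536, 836 and 508 in KO ethanol. On that scale the groups overlapped in both genotypes, and the 2 extremes were both from KO mice.

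In edgeR on TMM-scaled counts the log2 fold change of Oxct1 after ethanol was -0.11 ± 0.43 in WT mice (adjusted p = 0.912) and -0.61 ± 0.43 in KO mice (adjusted p = 0.999), with an interaction of -0.50 ± 0.61 (adjusted p = 0.725). Without TMM scaling the WT value was 0.34 (adjusted p = 0.586), but then the median of all symbols was itself 0.49. By limma on log2(RPKM + 1) the value was 0.72 ± 0.30 in WT mice (adjusted p = 0.384) and -0.93 ± 0.30 in KO mice (adjusted p = 0.921). The interaction on that scale, the KO effect minus the WT effect, was -1.65 ± 0.42 (adjusted p = 0.313), and KO saline exceeded WT saline by 1.13 ± 0.30 (adjusted p = 0.25). These 4 limma values were under 0.05 before adjustment only. The median of all symbols in those limma contrasts lay between -0.05 and 0.01. Oxct1 overlaps the gene BC037032 on the chromosome, and whether the counting used strand is not stated, but that gene had at most 34 counts in any library against at least 500 for Oxct1.

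**Figure D3:**
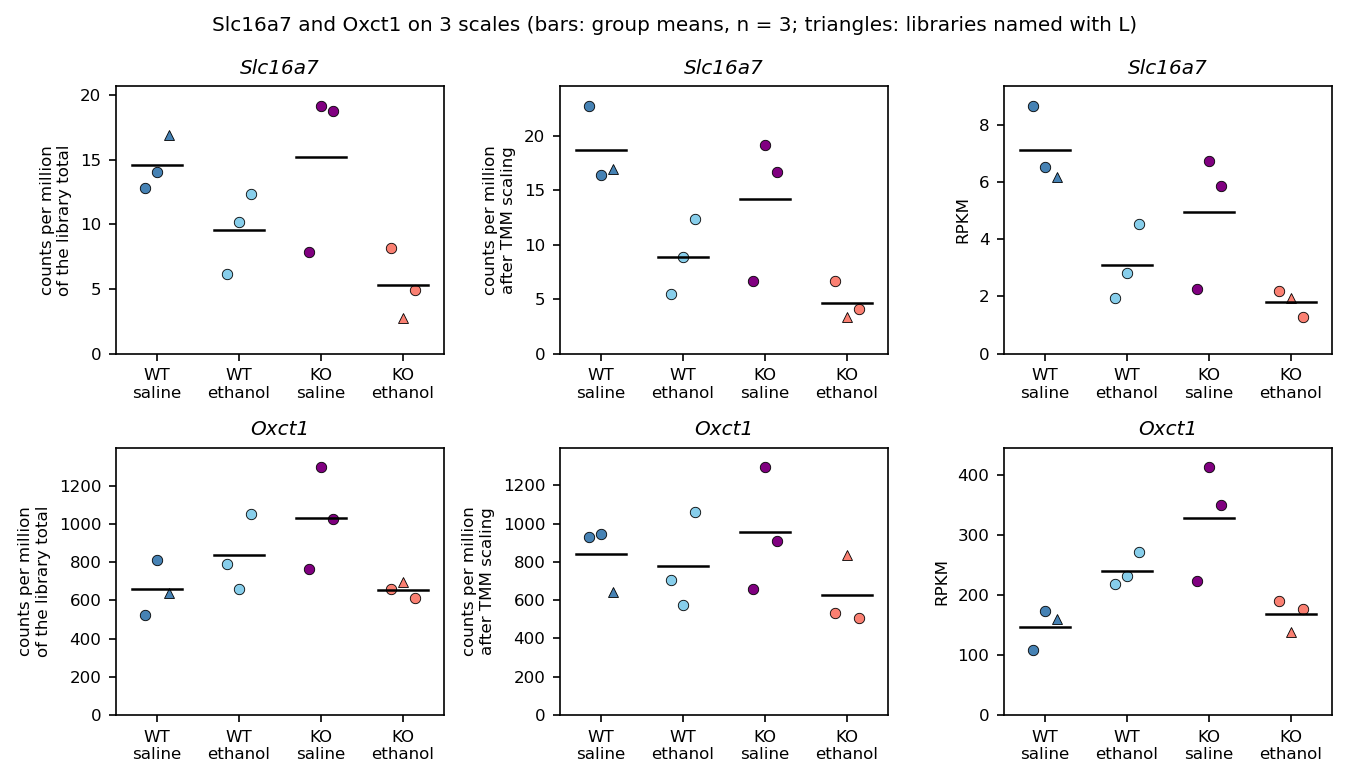
Slc16a7 (top) and Oxct1 (bottom) in each library on 3 linear scales (vertical axes), CPM of the library total, TMM CPM and RPKM, with bars for the group means (n = 3) and triangles for libraries whose names begin with L. Slc16a7 is lower on average after ethanol in both genotypes on all 3 scales, while the WT ethanol mean of Oxct1 is below the WT saline mean in TMM CPM (779 against 840) and above it in RPKM (240 against 148).

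Ratios of counts within a library were then taken, after the dependence on scale had been seen. The ratio of Oxct1 to Acat1, the enzymes of successive steps, was 1.21, 2.23 and 2.02 in WT saline and 2.93, 3.03 and 2.40 in WT ethanol. It was 3.29, 3.04 and 3.44 in KO saline and 2.78, 1.52 and 2.58 in KO ethanol. The groups did not overlap within either genotype, ethanol being the higher in WT mice and the lower in KO mice. The interaction was -1.21 on the log2 scale (exact permutation p = 0.005, the smallest that 400 arrangements can give, adjusted p = 0.03 over the 6 ratios), and it lay between -1.38 and -0.94 with each library left out in turn. The separation of the groups, in opposite directions in the genotypes, already fixes that minimum, so this p is no further support. The permutations of these interactions exchanged treatment within each genotype. Their p thus tests for no ethanol effect in either genotype, and not for equal effects. The ratio of Oxct1 to Acat2 had geometric means of 7.38 in WT saline and 12.2 in WT ethanol, against 11.8 in KO saline and 8.84 in KO ethanol, with an interaction of -1.14 (exact permutation p = 0.01, adjusted p = 0.03). That of Oxct1 to Bdh1 had an interaction of -0.90 (exact permutation p = 0.12), and those of Oxct1 to Slc16a1 and to Slc16a7 gave -0.55 (exact permutation p = 0.22) and -0.06 (exact permutation p = 0.955). Without the libraries whose names begin with L the Acat1 ratio gave -1.11 (exact permutation p = 0.01) and the Acat2 ratio -0.77 (exact permutation p = 0.04). A ratio does not say which of its genes differed.

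**Figure D4:**
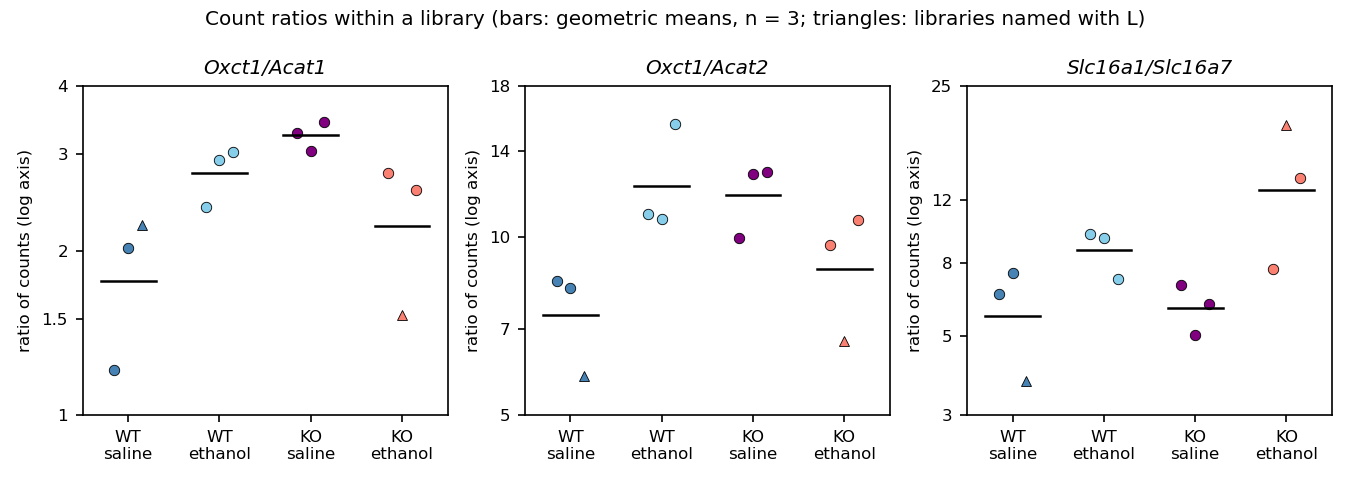
Ratio of counts of Oxct1 to Acat1, Oxct1 to Acat2 and Slc16a1 to Slc16a7 within each library (vertical axes, log scale) by group, with bars for the geometric means (n = 3) and triangles for libraries whose names begin with L. The Oxct1 to Acat1 bars stand at 1.76, 2.77, 3.25 and 2.22 in WT saline, WT ethanol, KO saline and KO ethanol.

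Both thiolases were on average highest in WT saline by TMM CPM. Acat2, the cytosolic enzyme that also feeds sterol synthesis (chr17:12943042-12960726, mm10), had 110, 111 and 116 TMM CPM in WT saline and 53.6, 68.4 and 64.3 in WT ethanol, without overlap. The share of all symbols without overlap in that comparison is not given here. Acat2 had 66.0, 101 and 70.7 in KO saline and 55.3, 125 and 47.5 in KO ethanol, where library 12 stood above all other libraries. The log2 fold change was -0.85 ± 0.37 in WT mice (edgeR, adjusted p = 0.248, under 0.05 before adjustment) and -0.10 ± 0.38 in KO mice (adjusted p = 0.999), and the interaction was 0.75 ± 0.53 (adjusted p = 0.519). In WT mice Acat2 no longer passed 0.05 before adjustment without WT saline library 1 (-0.89, adjusted p = 0.447) or 13 (-0.83, adjusted p = 0.353), without WT ethanol library 4 (-0.77, adjusted p = 0.535), 5 (-0.93, adjusted p = 0.297) or 14 (-0.93, adjusted p = 0.354), without TMM scaling (-0.42, adjusted p = 0.496), or with the first letter of the library name as a covariate (-0.67, adjusted p = 0.313). Limma on RPKM gave -0.48 ± 0.29 in WT mice (adjusted p = 0.523). Acat3, a close copy of Acat2 that could share reads with it, had a mean of 0.469 RPKM. Acat1, the mitochondrial enzyme, had 770, 288 and 468 TMM CPM in WT saline and 196, 350 and 293 in WT ethanol, against 200, 426 and 265 in KO saline and 193, 548 and 197 in KO ethanol. Its WT fold change was -0.86 ± 0.51 (edgeR, adjusted p = 0.366), and its groups overlapped in every comparison.

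The thiolase values depended on the libraries whose names begin with L, and Acat2 in TMM CPM was highest where red blood cell transcripts were. Without those 2 libraries, Acat1 was lower after ethanol in WT mice at -1.23 ± 0.40 (edgeR, adjusted p = 0.0457) and Acat2 at -0.94 ± 0.28 (adjusted p = 0.0359), and Slc16a1 was then -0.94 ± 0.36 (adjusted p = 0.0839). In that fit 21.5% of all symbols passed adjustment, so that 2 of 7 genes is near the share of all symbols. Over the 24 alternatives to the fit with all libraries the adjusted values ran from 0.0457 to 0.884 for Acat1, 0.0359 to 0.564 for Acat2 and 0.0839 to 0.947 for Slc16a1. In KO mice the same fit gave -0.65 ± 0.29 for Acat2 and -0.89 ± 0.39 for Oxct1, both under 0.05 before adjustment (adjusted p = 0.864 for each), as were 4.03% of all symbols. The summed RPKM of 4 haemoglobin genes, all detected in every group, was 475 to 737 in WT saline, 73.3 to 194 in WT ethanol and 52.9 to 153 in KO saline. In KO ethanol it was 47.5 and 42.4 in libraries 10 and 18 and 706 in library 12. The libraries with the highest Acat2 in TMM CPM, WT saline 1, 3 and 13 and KO ethanol 12, were thus those with the highest haemoglobin sums. Acat1 did not follow this order, with 288 TMM CPM in WT saline library 3 and 426 in KO saline library 8. Nor did Acat2 in RPKM, with 32.4 in WT saline library 1 and 44.5 in KO saline library 8. The part of blood or of library 12 in the thiolase differences was not tested.

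Bdh1, the first oxidising step, differed little as a whole. It ranged from 204 to 299 TMM CPM in WT saline and 157 to 201 in WT ethanol, against 178 to 257 in KO saline and 194 to 259 in KO ethanol. The WT groups thus did not overlap but nearly met, at 204 and 201. The log2 fold change was nevertheless -0.37 ± 0.33 in WT mice (edgeR, adjusted p = 0.549) and 0.08 ± 0.33 in KO mice (adjusted p = 0.999). Its transcripts differed in their part of the count. NM_175177, which begins at the upstream start printed above (chr16:31422297-31458902), took 29.1, 40.5 and 11.6% of the Bdh1 count in WT saline and 5.25, 7.60 and 18.7% in WT ethanol. It took 13.2, 24.0 and 3.64% in KO saline and 6.95, 3.22 and 6.47% in KO ethanol. The groups overlapped in each genotype, with exact permutation p = 0.2 in WT and 0.3 in KO mice. Fitted by transcript, NM_175177 was lower after ethanol in WT mice at -1.58 ± 0.66 (edgeR, adjusted p = 0.233, under 0.05 before adjustment), and its value in KO mice was -1.17 ± 0.66 (adjusted p = 0.9998). NM_001122683, from the downstream start with the GC box, had -0.16 ± 0.38 (adjusted p = 0.85) and 0.20 ± 0.38 (adjusted p = 0.9998). The estimated counts divide reads that both transcripts share, so these shares depend on the authors' quantification.

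**Figure D5:**
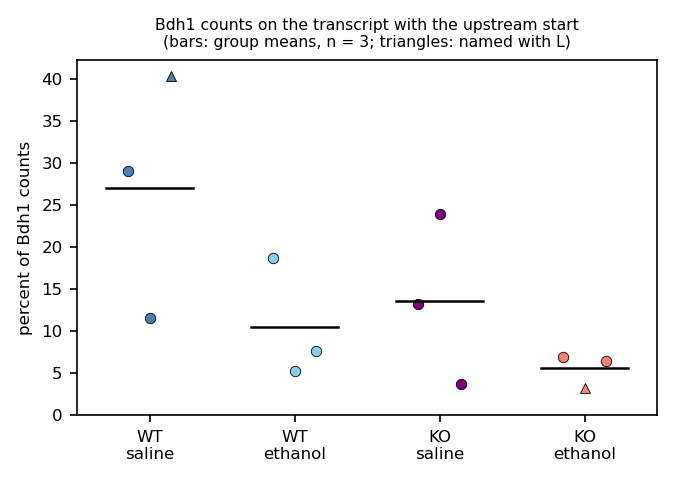
Percent of Bdh1 counts assigned to the transcript of the upstream start, NM_175177 (vertical axis), in each library by group, with bars for the group means (n = 3) and triangles for libraries whose names begin with L. The means are 27.0% in WT saline and 10.5% in WT ethanol, against 13.6% in KO saline and 5.55% in KO ethanol, and the groups overlap.

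Bdh2, the cytosolic dehydrogenase, had few counts. It had 24, 0 and 32 counts in WT saline and 95, 7 and 6 in WT ethanol, against 7, 15 and 13 in KO saline and 26, 0 and 25 in KO ethanol. The WT ethanol value came almost wholly from library 4. The log2 fold change was -0.01 ± 0.89 in WT mice (edgeR, adjusted p = 0.996) and 0.92 ± 0.96 in KO mice (adjusted p = 0.999), with errors wider than those of any other member.

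Counted over the set, 2 of the 7 genes (Acat2 and Slc16a7, both lower) passed an unadjusted p of 0.05 in edgeR for WT ethanol against WT saline, where 18.3% of all symbols tested did. In KO mice 1 of 7 did (Slc16a7), where 3.15% of all symbols did. For KO saline against WT saline 0 of 7 passed (19.6% of all symbols), for KO ethanol against WT ethanol 0 of 7 (3.24%), and for the Genotype x Treatment interaction 0 of 7 (15.2%). For the mean effect of Treatment 1 of 7 passed, Slc16a7, beside 7.09% of all symbols. After adjustment 0 of 7 passed in any of these comparisons, in edgeR and in DESeq2. Over all symbols the adjusted edgeR calls were 0.0746% for ethanol in WT mice, 0.0543% for KO saline against WT saline and 0% in the other 4 comparisons. DESeq2 called 3.33% for ethanol in WT mice, 4.78% for KO saline against WT saline, 0.0136% for ethanol in KO mice, 0.0205% for KO ethanol against WT ethanol, 1.09% for the interaction and 0.341% for Treatment. In limma on RPKM 2 of 7 passed for ethanol in WT mice (Oxct1 higher and Slc16a7 lower, 11.7% of all symbols) and 2 of 7 in KO mice (both lower, 3.90%). There, 1 of 7 passed for KO saline against WT saline (Oxct1, 12.2%), 0 of 7 for KO ethanol against WT ethanol (4.75%), 1 of 7 for the interaction (Oxct1, 11.5%) and 1 of 7 for the mean effect of Treatment (Slc16a7, 4.74%). The median log2 fold change of the 7 genes in edgeR was -0.58 for ethanol in WT mice, against 0.06 over all symbols, and -0.10 in KO mice, against 0.01. For KO saline against WT saline it was -0.46, against 0.04. The WT comparison and the KO saline comparison share the WT saline libraries.

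The rest of the pathway was read from lists of names. Of 8 other ketone body enzymes 6 were tested, and 0 passed an unadjusted p of 0.05 in edgeR in any of the 6 comparisons, where 3.15 to 19.6% of all symbols did. Among them was Hmgcs1, the cytosolic HMG-CoA synthase of sterol synthesis, the most abundant at 196 RPKM. In RPKM Hmgcs1 had the same order of groups as Oxct1, at 139 ± 29.3, 224 ± 12.2, 267 ± 35.5 and 154 ± 41.6 in WT saline, WT ethanol, KO saline and KO ethanol. Limma on log2(RPKM + 1) called it before adjustment in the same 4 comparisons as Oxct1, at 0.71 for ethanol in WT mice (adjusted p = 0.362), -0.82 for ethanol in KO mice (adjusted p = 0.921), 0.95 for KO saline against WT saline (adjusted p = 0.267) and -1.53 for the interaction (adjusted p = 0.318). The summed RPKM of the 13 ketone body enzymes, transporters left out, was 519 ± 65.7, 679 ± 15.2, 844 ± 143 and 542 ± 52.2 in these groups, and without Oxct1 and Hmgcs1 it was 232 ± 23.3, 214 ± 11.4, 248 ± 15.9 and 220 ± 16.0. Thus Oxct1 and Hmgcs1 made up 54.9, 68.4, 70.1 and 59.0% of the sum. Oxct2a was at 0 in every library.

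Among 13 genes of monocarboxylate and pyruvate transport and lactate, 8 were tested. After ethanol in WT mice 1 was higher (Slc16a6, a transporter relative, 2.06 ± 0.74) and 2 were lower, Mpc1 (-2.06 ± 0.76) and Mpc2 (-1.56 ± 0.55), the subunits of the mitochondrial pyruvate carrier, as log2 fold changes, all at an unadjusted p under 0.05 in edgeR. Their adjusted values lay between 0.208 and 0.215, and 18.3% of all symbols passed the unadjusted level in that comparison. In KO mice 0 of the 8 passed it, beside 3.15% of all symbols. Bsg, the chaperone of Slc16a1, was the most abundant at 365 RPKM and was lower in KO saline than in WT saline before adjustment, at -1.19 ± 0.50 (edgeR, adjusted p = 0.222), as were Mpc1 at -2.14 ± 0.77 (adjusted p = 0.183) and Mpc2 at -1.66 ± 0.55 (adjusted p = 0.177). Of 16 genes each of mitochondrial fatty acid oxidation and the citrate cycle, 1 (Etfb) and 2 (Sdhc and Sdhd) were lower after ethanol in WT mice in edgeR before adjustment, beside 18.3% of all symbols. In KO mice 0 of either list passed in edgeR (3.15% of all symbols), while limma on RPKM called Cpt1c higher (0.91, adjusted p = 0.921, 3.90% of all symbols). In WT mice limma on RPKM called Etfdh higher after ethanol before adjustment (0.85, adjusted p = 0.421, 11.7% of all symbols). It called Etfb (-0.77, adjusted p = 0.415) and Sdhc (-0.72, adjusted p = 0.42) lower there. For KO saline against WT saline (19.6% of all symbols) Etfb (-1.45), Sdhc (-1.70) and Sdhd (-1.39) were lower too before adjustment. So were Slc25a20 (-1.05) and Sdhb (-1.54), the adjusted edgeR values of all these lying between 0.176 and 0.211. Of 4 tested regulators, Sirt3, a mitochondrial deacetylase, was lower after ethanol in WT mice before adjustment, at -1.13 ± 0.41 (edgeR, adjusted p = 0.213). It was lower in KO saline than in WT saline as well, at -1.16 ± 0.41 (edgeR, adjusted p = 0.182). The edgeR interaction was called before adjustment for Bsg (1.69), Mpc1 (2.29), Mpc2 (2.50), Etfb (1.83), Sdhb (2.23), Sdhc (2.14), Mdh2 (1.63) and Sirt3 (1.42), beside 15.2% of all symbols. Their adjusted values lay between 0.25 and 0.322. The WT ethanol and KO saline comparisons share the WT saline libraries.

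The symbols whose TMM-scaled profile over the 12 libraries was nearest to that of Oxct1, by the root mean square of the difference in centred log2 CPM, were Gabra3 (0.15), Trim37 (0.16), Serbp1 (0.16), Cab39 (0.17) and Srr (0.17), against a median of 0.78 over all symbols. Among the other members Slc16a1 ranked 833, Acat2 878, Acat1 1544, Bdh1 1824, Slc16a7 6275 and Bdh2 13548. The other members were thus not among the 5 nearest symbols, and ranks of further ketone body enzymes such as Hmgcs1 are not given here. The root mean square of the centred profile of Oxct1 itself was 0.40, near the differences of Slc16a1 (0.38) and Acat2 (0.39).

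Markers of the labelled tissue were present in every library, 5 neuronal genes summing to 732 to 2376 RPKM. Summed astrocyte markers ran from 96.8 to 659 RPKM, oligodendrocyte lineage markers from 49.6 to 212, endothelial markers from 27.3 to 92.1 and microglial markers from 26.5 to 100. For 3 choroid plexus genes the sum ran from 0 in KO ethanol library 12 to 5384 RPKM in WT ethanol library 4, which held 95 of the 108 Bdh2 counts of WT ethanol. Their part in the Bdh2 value was not tested. After ethanol in WT mice, where Slc16a7 and Acat2 were called, 11 of these 32 markers passed an unadjusted p of 0.05 in edgeR too, beside 18.3% of all symbols. All 4 haemoglobin genes, Tubb3 (-1.38 ± 0.57) of the neuronal list and Aif1 (-1.51 ± 0.62) and C1qa (-1.40 ± 0.59) of the microglial list were lower, while neuronal Gad1 (0.92 ± 0.31), endothelial Flt1 (1.11 ± 0.47) and Ttr (5.29 ± 2.32) and Clic6 (4.08 ± 1.57) of the choroid plexus were higher, as log2 fold changes. Their adjusted values lay between 0.208 and 0.249. None of the 32 passed after ethanol in KO mice, in edgeR or limma, where 3.15% and 3.90% of all symbols did. By limma on log2(RPKM + 1), where Oxct1 was called, 6 of the 32 passed for ethanol in WT mice (2 higher, 4 lower, 11.7% of all symbols). For KO saline against WT saline 10 passed (5 higher, 5 lower, 12.2%), and for the interaction 3, all negative (11.5%). Astrocyte Slc1a3 and neuronal Gad1 were called in each of these, with the signs of Oxct1 (interactions of -2.07, adjusted p = 0.347, and -1.45, adjusted p = 0.343). The part of these markers in the Slc16a7, Acat2 and Oxct1 values was not tested.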

How the data were processed

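Stranded RNA-Seq of somatosensory cortex gave 12 libraries, 3 from each of WT saline, WT ethanol, KO saline and KO ethanol mice, grouped by the sample labels. Reads had been quality-filtered by the authors, mapped to mm10 by TopHat with Bowtie2, and assigned to RefSeq transcripts by Partek Flow, with version and counting settings not given in the sources used here. The deposited estimated counts are one per transcript and library, without library-size scaling. The deposited RPKM values come from the same quantification, and each library holds almost the same set of sorted values, as a quantile normalization would leave, although the study's methods name no such step.

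Here counts were summed per gene symbol, rounded and tested in edgeR 4.0.16 (R 4.3.3) with TMM factors, edgeR's standard filter for low counts and a quasi-likelihood fit of the 4 group means, on 14739 of 24452 symbols, two-sided, with Benjamini-Hochberg adjustment over all symbols tested. A gene was called at an unadjusted p under 0.05, and adjusted p-values are given beside it. Limma 3.58.1 on log2(RPKM + 1) was the reading of the second unit, so its fold changes understate those of low genes. Single values were compared by two-sided exact permutation over libraries (scipy 1.17.1). The fits were tested on simulated data. Counting intervals cover counting error only. The labels mark separate libraries, and the methods describe separate mice. No replicate number is shared between groups, so nothing was paired.

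All 7 ketone body genes were named, with each transcript of a gene that has several, and from the wider lists the genes under an unadjusted p of 0.05 or highest in mean RPKM. The value of 1 other listed gene is not reported here. The genes, lists and tests were chosen with earlier results of these data known. The mean effect of Treatment, the count ratios, and the exact tests with libraries left out were added after these values had been seen. Alternatives were DESeq2 1.42.0, no TMM, counts of at least 1 in any or 10 in every library, a pseudocount of 0.1, untransformed RPKM, single transcripts, only the groups compared, the first letter of the library name as a covariate or a reason to leave libraries out, removal of length and GC trends, and each library left out in turn.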

Additional observations from a re-analysis of the deposited data

Results flagged for a closer look

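A difference between the ethanol effects in the 2 genotypes was flagged for Oxct1 in RPKM and for 2 of 5 count ratios that hold Oxct1. For Oxct1 it did not pass adjustment over all symbols, and the ratios were added after the values had been seen. By limma on log2(RPKM + 1) the KO effect minus the WT effect was -1.65 (adjusted p = 0.313 over all symbols), from 0.72 in WT mice and -0.93 in KO mice. In that limma contrast 11.5% of all symbols passed an unadjusted p of 0.05. The exact permutation p of that value was 0.005, and with each library left out in turn the value lay between -1.91 and -1.45. The groups of Oxct1 in RPKM separate within each genotype in opposite directions. That already fixes this p at its minimum, as it does for the ratio to Acat1, so neither is further support. The exact permutations here exchange treatment within each genotype. They thus test for no ethanol effect in either genotype, and not for equal effects. The log2 ratio of Oxct1 to Acat1 counts gave -1.21 and that of Oxct1 to Acat2 counts -1.14, and the ratios to Bdh1 (exact permutation p = 0.12), Slc16a1 (exact permutation p = 0.22) and Slc16a7 (exact permutation p = 0.955) did not pass. The thiolases' own edgeR interactions were larger than that of Oxct1 and of opposite sign, at 0.93 for Acat1 (adjusted p = 0.559) and 0.75 for Acat2 (adjusted p = 0.519), so these ratios are no reading of Oxct1 alone. The edgeR interaction of Oxct1 on TMM-scaled counts was -0.50 (adjusted p = 0.725), and with length and GC trends removed it was 0.30 (adjusted p = 0.904). Oxct1 itself was thus called, before adjustment, on RPKM and not on TMM-scaled counts, and which scale is nearer to the RNA of the tissue was not tested.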

How the results depend on the processing

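Of the single-gene values under the alternatives that kept every library choice but 1 setting or left out the libraries whose names begin with L, 392 kept their direction and their side of an unadjusted p of 0.05, 25 kept their direction and passed it anew, 6 kept their direction and no longer passed it, and 69 turned direction. Slc16a7 after ethanol in either genotype was among those that never turned, at -1.25 to -0.59 in WT mice and -1.52 to -1.01 in KO mice over the alternatives on a log2 scale. The values that turned mostly lay near 0, and only Oxct1 in WT mice passed an unadjusted 0.05 on the turned side, in limma. Without TMM the direction turned, with Oxct1 0.34, Bdh1 0.050 and Bdh2 0.67 for WT ethanol, Acat1 -0.047 for KO ethanol, Bdh1 0.27, Slc16a1 0.066 and Slc16a7 0.070 for KO saline against WT saline, Bdh1 -0.015 and Slc16a1 -0.46 for the interaction, Bdh1 0.042 for Treatment. With at least 10 counts in every library the direction turned, with Oxct1 0.031 for WT ethanol, Slc16a1 -0.090 for the interaction. With limma on log2(RPKM + 1) the direction turned, with Oxct1 0.72 and Bdh1 0.0067 for WT ethanol, Bdh1 -0.0015 and Acat1 -0.25 for KO ethanol, Bdh1 0.26 and Acat1 0.0094 for KO saline against WT saline, Acat1 -0.10 for KO ethanol against WT ethanol, Bdh1 -0.0082, Acat1 -0.11, Slc16a1 -0.14 and Slc16a7 0.015 for the interaction, Bdh1 0.0026 and Bdh2 -0.044 for Treatment. With limma on log2(RPKM + 0.1) the direction turned, with Oxct1 0.73, Bdh1 0.0070 and Bdh2 0.31 for WT ethanol, Bdh1 -0.0012, Bdh2 -0.33 and Acat1 -0.25 for KO ethanol, Bdh1 0.26 and Acat1 0.0090 for KO saline against WT saline, Acat1 -0.10 for KO ethanol against WT ethanol, Bdh1 -0.0082, Bdh2 -0.64, Acat1 -0.11 and Slc16a1 -0.15 for the interaction, Bdh1 0.0029 and Bdh2 -0.010 for Treatment. In the linear model on RPKM, in RPKM units, the direction turned, with Oxct1 92.7 for WT ethanol, Bdh1 -1.13 and Acat1 -15.5 for KO ethanol, Bdh1 11.6 and Acat1 3.51 for KO saline against WT saline, Acat1 -4.50 for KO ethanol against WT ethanol, Bdh1 -0.89, Acat1 -8.00, Slc16a1 -1.51 and Slc16a7 0.88 for the interaction, Bdh2 -0.17 for Treatment. For single transcripts the direction turned, with Bdh2 0.57 for WT ethanol, Bdh1 0.020 for Treatment. With length and GC trends removed the direction turned, with Bdh2 0.86 for WT ethanol, Acat2 0.10 and Slc16a1 0.17 for KO ethanol, Oxct1 -0.17 for KO saline against WT saline, Oxct1 0.13 and Slc16a1 0.18 for KO ethanol against WT ethanol, Oxct1 0.30 and Bdh2 -0.029 for the interaction. Without the libraries whose names begin with L the direction turned, with Bdh1 -0.056 and Acat1 -0.63 for KO ethanol, Oxct1 -0.042 for KO saline against WT saline, Acat1 -0.53 and Acat2 -0.28 for KO ethanol against WT ethanol. With the first letter of the library name as a covariate the direction turned, with Acat1 -0.15 for KO ethanol, Acat1 -0.061 and Acat2 -0.048 for KO ethanol against WT ethanol.

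Beside each number of the 7 genes called stands the percent of all symbols called in that fit. Without TMM the number called was 0 for WT ethanol (20.3%). With at least 10 counts in every library the number called was 1 for WT ethanol (20.0%), 0 for KO ethanol (4.04%) and 0 for Treatment (4.93%). In the linear model on RPKM, in RPKM units, the number called was 1 for WT ethanol (10.3%), 2 for KO ethanol (3.70%), 1 for KO saline against WT saline (11.0%) and 1 for the interaction (10.2%). With the first letter of the library name as a covariate the number called was 1 for WT ethanol (17.8%), 1 for KO saline against WT saline (19.8%) and 2 for Treatment (7.73%). Without the libraries whose names begin with L the number called was 4 for WT ethanol (37.3%), 3 for KO ethanol (4.03%), 3 for KO saline against WT saline (39.2%) and 5 for Treatment (30.6%). With limma on log2(RPKM + 1) the number called was 2 for KO ethanol (3.90%), 1 for KO saline against WT saline (12.2%) and 1 for the interaction (11.5%). With limma on log2(RPKM + 0.1) the number called was 2 for KO ethanol (3.75%), 1 for KO saline against WT saline (11.5%) and 1 for the interaction (11.2%). With length and GC trends removed the number called was 3 for WT ethanol (16.4%), 1 for KO saline against WT saline (14.9%) and 1 for the interaction (9.75%). With 1 library left out in turn, the number of genes called ran from 0 to 4 for WT ethanol, 0 to 1 for KO saline against WT saline, 1 to 3 for Treatment. The values that turned in at least 1 of those fits ran from Oxct1 -0.40 to 0.051 for WT ethanol, Bdh2 -1.59 to 0.62 for WT ethanol, Bdh1 -0.038 to 0.29 for KO ethanol, Acat1 -0.61 to 0.42 for KO ethanol, Acat2 -0.63 to 0.19 for KO ethanol, Oxct1 -0.098 to 0.36 for KO saline against WT saline, Bdh1 -0.38 to 0.035 for KO saline against WT saline, Bdh2 -1.05 to 0.97 for KO ethanol against WT ethanol, Acat1 -0.52 to 0.45 for KO ethanol against WT ethanol, Acat2 -0.27 to 0.56 for KO ethanol against WT ethanol, Slc16a1 -0.16 to 0.42 for the interaction, Bdh2 -0.32 to 0.76 for Treatment. At least 10 counts in every library removed Slc16a7 and Bdh2. The first-letter covariate ended the WT call of Acat2 and kept that of Slc16a7. Counts limit Bdh2, with at most 95 in a library, and Slc16a7 in KO ethanol library 12. The cause of these differences was not tested, except that fewer libraries or genes enter some fits. No paired analysis was possible because the groups share no replicate number.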
